A study of Mus musculus with 54 samples.

Results

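The oxidative phosphorylation (OXPHOS) genes described here were all genes whose symbol began with Ndufa, Ndufb, Ndufc, Ndufs, Ndufv, Sdh, Uqcr, Cox4, Cox5, Cox6, Cox7, Cox8, Atp5, mt-Nd, mt-Co, mt-Cytb or mt-Atp in any of 4 deposited tables of gene expression. They numbered 107 of 20447 genes. By their known roles, 93 were structural subunits, with 43 in complex I, 4 in complex II, 9 in complex III, 20 in complex IV and 17 in complex V. Of the 93, 13 were encoded by the mitochondrial genome and 80 by the nucleus. The other 14 matched the prefixes without being subunits. They comprised 7 complex I assembly factors, 2 complex II assembly factors, the supercomplex factor *Cox7a2l*, the pseudogenes *Atp5l-ps1* and *Atp5l-ps2*, and *Atp5s* and *Atp5sl*.

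OXPHOS is the last stage of aerobic ATP production. Complexes I and II pass electrons from NADH and succinate to ubiquinone, complex III passes them to cytochrome c and complex IV to oxygen, while complexes I, III and IV pump protons across the inner mitochondrial membrane and complex V, the ATP synthase, uses the gradient to make ATP. Most subunits are nuclear genes translated in the cytosol, the mitochondrial genome encodes a small hydrophobic core that is transcribed as long precursors and cut at its transfer RNAs, and complex II has no mitochondrially encoded subunit. Apart from isoforms restricted to certain tissues, the subunits are expressed widely, and in the gut wall absorptive epithelium and smooth muscle are large consumers of ATP.

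The comparisons asked how activation of gut-associated neurons altered gene expression in the tissue around them. Heterozygous ChAT-Cre or TH-Cre mice were infected at 6 to 8 weeks of age with AAV-PHP.S, which carried either hSYN1-DIO-hM3Dq-mRuby2 (activated) or hSYN1-DIO-mRuby2 (control). hM3Dq is a DREADD, a receptor that excites the cell when it binds the designer drug compound 21 (C21), and all mice, controls included, received C21 for 10 days. QuantSeq libraries, which tag the 3′ end of polyadenylated RNA, were made from 1 cm of the distal SI and of the proximal colon, taken 1 h after the last injection at 10 to 13 weeks of age. The hSYN1 promoter confines the receptor to neurons and the inverted construct to cells with Cre. In TH-Cre mice the sympathetic ganglia that project to the gut are also reached. For ChAT-Cre mice, the paper reports that such a vector also marks neurons of the cardiac ganglia, and it calls an indirect effect on the gut possible. The RNA came from the whole gut segment, so a value covers all of its cells. Of the 54 libraries, the ChAT+ line gave 5 control and 5 activated ones from the distal SI and 6 and 9 from the proximal colon. From the TH+ line there were 5 and 6 (distal SI) and 8 and 10 (proximal colon).

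Each deposited table gives a log2 fold change (activated against control) and an adjusted p-value per gene. They hold no value per library, so depth was unknown, levels could not be compared between genes, and no group overlap could be examined. Standard errors (SE) and 95% intervals were recovered from the adjusted p-values and are approximate. Where 4 values follow each other below, the ChAT+ line comes before the TH+ line and, within a line, the SI before the colon. In this order the tables list 20445, 17512, 18960 and 20445 genes, among them 107, 93, 101 and 107 of the OXPHOS genes. All 4 tables list 88 of them. In the table for the ChAT+ proximal colon, *Atp5c1*, *Cox6c*, *Cox7a2l*, *Cox7b*, *Ndufa6*, *Ndufaf5*, *Ndufb2*, *Ndufb6*, *Ndufc2*, *Ndufs1*, *Ndufs5*, *Sdha*, *mt-Nd2* and *mt-Nd4* were not listed, and in that for the TH+ distal SI, *Ndufab1*, *Ndufaf1*, *Ndufs7*, *Ndufv3*, *Sdha* and *Uqcrc2* were not listed. The labels give 0 females among the 5 controls and 2 among the 6 activated mice of the TH+ distal SI, yet the log2 fold change of *Xist*, the X-inactivation RNA of female cells, was 0.34 there with a 95% interval from −2.53 to 3.22. Whether the OXPHOS values of that comparison rest on these libraries as labelled could not be checked. If they do, sex and activation cannot be fully told apart in it. In the other comparisons, females were 2 of 5 controls and 3 of 5 activated (ChAT+ distal SI), 3 of 6 and 5 of 9 (ChAT+ proximal colon), and 3 of 8 and 5 of 10 (TH+ proximal colon).

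Most OXPHOS genes had estimates within 1.5-fold of control mice in all 4 comparisons, and 1 gene in 1 comparison passed the adjusted p threshold of 0.05. *Ndufaf4*, which encodes an assembly factor of complex I, rose by 0.50 on the log2 scale (1.42-fold) in the ChAT+ distal SI (SE 0.12, adjusted p = 0.00895). None of the 93 structural subunits, nuclear or mitochondrially encoded, passed the threshold in any comparison.

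These counts were read against the share of all genes that passed. Of 107 OXPHOS genes in the ChAT+ distal SI, 1 was called higher, against 0.577% of all genes, and 0 were called lower, against 0.215%. For the ChAT+ proximal colon, 0 of 93 were called higher and 0 lower, where 0.965% and 0.48% of all genes were called. The TH+ distal SI had 0 of 101 called in either direction, where 0.364% of all genes were called higher and 0.506% lower. In the TH+ proximal colon, 0 of 107 were called in either direction, against 0.636% and 0.303%. With shares of all genes this low, counts of 0 and 1 are near the background.

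At an unadjusted p under 0.05, recovered from the adjusted values, the ChAT+ distal SI held 7 of 107 OXPHOS genes (6.54%), below the 10.4% of all genes. The ChAT+ proximal colon held 4 of 93 (4.3%) against 11.5%, and the TH+ proximal colon 8 of 107 (7.48%) against 10.6%. The TH+ distal SI held 15 of 101 (14.9%), above the 11.7% of all genes. Of these 15, 13 were at higher values in activated mice, whereas 1056 of the 2222 such genes in the whole table were. OXPHOS genes had smaller SEs than most genes, with a median of 0.14 there against 0.28. Among all genes with an SE below the table median, 1393 of 10218, 1474 of 8750, 1615 of 9476 and 1329 of 10041 passed this p. Each is a larger share than that of the OXPHOS genes, the TH+ distal SI included.

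*Ndufaf4* lies on mouse chromosome 4 of GRCm38 from 24898083 to 24905001 on the plus strand. Its promoter is shown because it is the only gene of the set that passed the threshold. In RefSeq (GRCm38.p6) the 300 bases at chr4:24897833-24898132, around the start of the gene, read as follows, with matches to the binding motif of NRF1, a transcription factor known for nuclear OXPHOS genes, in capitals.
Ndufaf4 promoter: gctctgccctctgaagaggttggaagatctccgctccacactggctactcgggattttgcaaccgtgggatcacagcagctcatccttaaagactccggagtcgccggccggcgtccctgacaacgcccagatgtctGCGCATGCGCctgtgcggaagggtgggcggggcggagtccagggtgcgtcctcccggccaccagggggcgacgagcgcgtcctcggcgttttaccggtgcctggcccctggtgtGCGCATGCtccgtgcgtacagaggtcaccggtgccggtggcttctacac
The motif was searched as GCATGCGC on both strands. Counted from 0 at the first base of the gene, its 3 matches begin at −113, −111 and 1, and the first pair overlap on opposite strands. This window holds 66% G and C and 28 CG dinucleotides, against medians of 52.7% and 7 over all promoters. Windows were found for 77 of the 94 nuclear members, 83 windows in all. Of these, 14.5% held GCATGCGC, against 2.71% of 32851 promoters of the same length. The ETS motif CCGGAAG was in 22.9% of the OXPHOS windows and 8.86% of all, the YY1 motif AAGATGGC in 14.5% and 2.75%, the cyclic AMP response element TGACGTCA in 4.82% and 1.79%, and the estrogen-related receptor motif TCAAGGTCA in 2.41% and 0.423%. These matches describe the letters of the windows and are no evidence of binding in these mice.

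In the other comparisons *Ndufaf4* was at 0.20 in the ChAT+ proximal colon (95% interval 0.0064 to 0.39, adjusted p = 0.410) and at 0.20 in the TH+ distal SI (−0.024 to 0.41, adjusted p = 0.487). In the TH+ proximal colon it was at −0.20 (−0.40 to −0.0076, adjusted p = 0.440). By adjusted p it ranked 59 among the 8690 genes with higher values in the ChAT+ distal SI, and it was the sole OXPHOS gene among the 118 genes called higher there.

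The other complex I assembly factors, which help to build the complex, were not called. In the ChAT+ distal SI all 7 had values above 0, with a median of 0.35. *Ndufaf5* was at 0.47 (SE 0.27, adjusted p = 0.548), *Ndufaf6* at 0.43 (SE 0.22, adjusted p = 0.479) and *Ndufaf1* at 0.35. *Ndufaf2*, *Ndufaf3* and *Ndufaf7* lay between 0.017 and 0.068. Of all genes there, 42.5% were above 0, and of the 27 assembly factors outside the prefixes 15 were, with a median of 0.015. Of 6 listed, 4 were above 0 in both the ChAT+ proximal colon and the TH+ distal SI, and in the TH+ proximal colon 1 of 7 was, with *Ndufaf1* lowest at −0.50 (SE 0.22, adjusted p = 0.378). Between the ChAT+ distal SI and the TH+ proximal colon, comparisons that differ in both line and tissue, 6 of the 7 thus differed in sign, with *Ndufaf7* as the exception. *Sdhaf1*, which delivers iron-sulfur clusters to complex II, was above 0 in every comparison, at 0.35, 0.18, 0.57 and 0.13. Its lowest adjusted p was 0.122, in the TH+ distal SI. *Sdhaf2*, which attaches the flavin of complex II, was lowest in the TH+ proximal colon, at −0.29 (SE 0.12, adjusted p = 0.289).

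**Figure D1:**
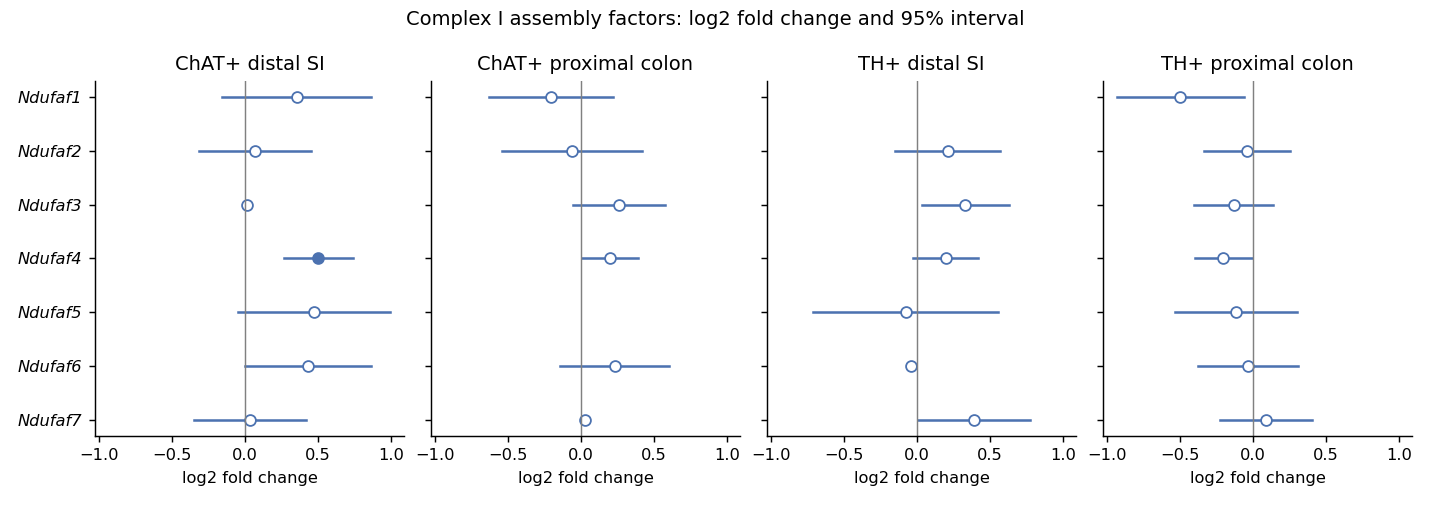
Log2 fold change, activated against control mice (x axis) for the 7 complex I assembly factors in the 4 comparisons, with recovered 95% intervals as lines. The filled circle, *Ndufaf4* in the ChAT+ distal SI at 0.50, passed the adjusted p threshold, open circles did not, a circle without a line has no usable interval, and a missing circle is a gene not listed in that table.

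Complex I, which oxidizes NADH, had 36 nuclear subunits. Their median in the ChAT+ distal SI was a log2 fold change of −0.050, beside −0.056 for all genes, and 23 of 36 were below 0. The subunit with the lowest p was *Ndufv3*, an accessory subunit of the NADH-binding module, at −0.41 (SE 0.14, adjusted p = 0.155). It was followed by the membrane-arm subunit *Ndufb6* at 0.26 (adjusted p = 0.309), the accessory subunit *Ndufa6* at −0.17 (adjusted p = 0.369) and *Ndufa10*, also accessory, at 0.19 (adjusted p = 0.459). *Ndufs5* had the largest value, 0.35, with an SE of 0.23. In the ChAT+ proximal colon 25 of 30 were below 0, where 54.4% of all genes were, but the shift was small. Their median was −0.096 beside −0.060 for all genes, and the values ran from −0.28 for *Ndufs7*, a core subunit that carries an iron-sulfur cluster, to 0.30 for the membrane-arm subunit *Ndufa1* (SE 0.24). No adjusted p for a nuclear complex I subunit there was below the 0.444 of *Ndufs7*.

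In the TH+ distal SI, 22 of the 33 nuclear complex I subunits listed were above 0, with a median of 0.062 beside 0.023 for all genes. The lowest p among all OXPHOS genes of that table belonged to *Ndufb3*, an accessory subunit of the membrane arm, which was at −0.64 (95% interval −1.04 to −0.23, adjusted p = 0.110). The next were at higher values. *Ndufv1*, the core subunit that binds NADH and flavin, was at 0.30 (0.10 to 0.50, adjusted p = 0.139), *Ndufs6* at 0.31 (adjusted p = 0.156), *Ndufa2* at 0.34 (adjusted p = 0.159) and *Ndufs3*, a core subunit of the matrix arm, at 0.43 (0.13 to 0.73, adjusted p = 0.163). *Ndufa13* (0.27, adjusted p = 0.239) and *Ndufa12* (0.22, adjusted p = 0.361) had unadjusted p-values under 0.05 as well. In the TH+ proximal colon *Ndufs3* had the lowest p of the OXPHOS genes and the other sign, at −0.38 (−0.66 to −0.099, adjusted p = 0.233). The accessory subunits *Ndufs5* and *Ndufa5* were at −0.57 (adjusted p = 0.357) and −0.23 (adjusted p = 0.416), and *Ndufa6* was at 0.16 (adjusted p = 0.402). The median of the 36 nuclear subunits was −0.037 there, beside −0.0037 for all genes.

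Complex II, succinate dehydrogenase, is the smallest of the set and also an enzyme of the tricarboxylic acid cycle. Its iron-sulfur subunit *Sdhb* was at −0.070, −0.035, 0.10 and −0.019. The membrane anchor *Sdhc* was at 0.21, 0.028, −0.16 and 0.041. The flavoprotein *Sdha*, listed in 2 tables, was at 0.06 in the ChAT+ distal SI and −0.030 in the TH+ proximal colon. The other anchor, *Sdhd*, was at 0.34, 0.60, −0.22 and −0.24 with SEs between 0.39 and 0.45, and all 4 of its intervals included 0.

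Complex III had the narrowest spread of nuclear subunits. Its 8 genes, 7 of them listed for the TH+ distal SI, lay between −0.24 and 0.19 in every table, and every one with a usable interval (7, 8, 7 and 7 genes) had it within 1.5-fold of no change. The lowest p was that of the core protein *Uqcrc1* in the ChAT+ proximal colon, at −0.24 (95% interval −0.47 to −0.0086, adjusted p = 0.405). The largest positive value in the same table was 0.19 for *Uqcrfs1*, the Rieske iron-sulfur protein (SE 0.15). *Uqcrc2* was largest in the ChAT+ distal SI at 0.11, and in the TH+ distal SI *Uqcrb* and the hinge protein *Uqcrh* marked the ends at −0.16 and 0.15.

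Complex IV, cytochrome c oxidase, had 17 nuclear genes, of which 6 were isoforms restricted to certain tissues. Among the 11 ubiquitous genes, 8 were below 0 in the ChAT+ distal SI, 7 of the 9 listed in the ChAT+ proximal colon, 8 of 11 in the TH+ distal SI and 4 of 11 in the TH+ proximal colon. All genes were below 0 in 57.5%, 54.4%, 49.1% and 50.4% of cases. Their medians were −0.049, −0.11, −0.14 and 0.011, beside −0.056, −0.060, 0.023 and −0.0037 for all genes. *Cox8a*, the ubiquitous form of subunit 8, was the lowest or highest of the complex in 3 comparisons among genes with an SE below the table median, at −0.15, −0.24 and, in the TH+ proximal colon, 0.18. *Cox4i1*, the main form of subunit 4, was at 0.22 in the TH+ distal SI (SE 0.10, adjusted p = 0.359). *Cox6a1* was at −0.19 in the ChAT+ proximal colon (SE 0.098, adjusted p = 0.436). *Ndufa4*, a subunit of complex IV in spite of its name, was at 0.39 in the ChAT+ distal SI (SE 0.22) and at −0.27 in the TH+ distal SI (SE 0.22).

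Most of the tissue-restricted isoforms of complex IV had wide errors. *Cox8b*, the form of subunit 8 found in striated muscle and brown fat, was at −0.90 in the ChAT+ distal SI (SE 0.51), at 1.37 in the ChAT+ proximal colon (SE 0.54), at 0.71 in the TH+ distal SI (SE 0.51) and at −0.48 in the TH+ proximal colon (SE 0.45). The value in the ChAT+ proximal colon was the largest of any OXPHOS gene and its interval ran from 0.31 to 2.42, but the adjusted p was 0.215. It was not called in any comparison, and its sign differed between the tissues of each line. Its promoter is printed beside that of *Ndufaf4* for contrast, at chr7:140900397-140900696 on the minus strand. None of the 5 motifs above was found in it, and it held 48.3% G and C and 2 CG dinucleotides.
Cox8b promoter: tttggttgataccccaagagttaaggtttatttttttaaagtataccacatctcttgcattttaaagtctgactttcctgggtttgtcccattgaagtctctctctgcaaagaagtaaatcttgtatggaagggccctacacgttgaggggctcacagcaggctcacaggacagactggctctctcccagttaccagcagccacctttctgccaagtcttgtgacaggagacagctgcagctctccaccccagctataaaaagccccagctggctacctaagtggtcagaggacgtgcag
In the ChAT+ distal SI, 8 of 8 adipocyte markers were below 0 like *Cox8b*, from −1.98 to −0.48, and the log2 level of *Plin1*, which coats the fat droplet, fell by 1.98 (adjusted p = 0.0115). Above 0 were 3 of 5 in the ChAT+ proximal colon (−0.50 to 1.57), 6 of 6 in the TH+ distal SI (0.073 to 0.56) and 1 of 8 in the TH+ proximal colon (−0.13 to 0.099). Of the brown fat markers, *Cox8b* included, 1 of 5, 2 of 3, 3 of 5 and 3 of 5 were above 0, with 0 called. In the ChAT+ proximal colon *Cidea* was at −0.46 and *Ppargc1a* at 0.048. In the TH+ proximal colon *Cidea*, *Elovl3* and *Otop1* were at 0.39, 0.96 and 1.33 and *Ppargc1a* at −0.028. The part of fat tissue in the values of *Cox8b* was not tested. In samples of whole tissue, fewer cells of a type and less RNA per cell cannot be told apart.

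Of the other isoforms, *Cox7a1*, the muscle form of subunit 7a, was the best measured, at −0.074, −0.20, 0.14 and 0.13 with SEs near 0.15. *Cox6b2* was at −0.056, −0.35, 0.42 and −0.14, and *Cox4i2* at −0.016, −0.35, 0.055 and 0.48. *Cox6a2*, the striated muscle form of subunit 6a, was at 0.26, −0.77 and −0.38 and was listed at 0 in the TH+ proximal colon. *Ndufa4l2*, a paralog of *Ndufa4* known to respond to hypoxia, was below 0 in every comparison, from −0.36 to −0.23, with SEs of 0.41 to 1.52. None of these had an adjusted p below 0.581.

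Complex V had 15 nuclear subunits, 5 in the catalytic F1 head and 10 in the membrane Fo part and the stalk. The medians were 0.099, −0.068, 0.041 and −0.072 for the F1 genes and −0.035, 0.0022, −0.24 and −0.057 for the Fo and stalk genes, so they differed in sign in 3 tables and not in 1 direction. In the TH+ distal SI, 4 of 5 F1 genes were above 0 and 7 of 10 Fo or stalk genes below. There *Atp5j* and *Atp5l* were at −0.50 each, with SEs of 0.25 and 0.36, and *Atp5h*, *Atp5g2* and *Atp5g3* between −0.29 and −0.26. *Atp5k*, subunit e of the Fo part, was at 0.27 in the same table (95% interval 0.079 to 0.47, adjusted p = 0.182), *Atp5j2* at 0.23 (adjusted p = 0.323) and *Atp5d* of the F1 head at 0.22 (adjusted p = 0.336). In the ChAT+ proximal colon *Atp5k* was at −0.20 (−0.40 to −0.0036, adjusted p = 0.425). In the TH+ proximal colon all 5 F1 genes and 7 of 10 Fo or stalk genes were below 0, but the lowest adjusted p was 0.732 and the median of the 15 was −0.058. *Atp5o*, which joins the stalk to the head, was below 0 in all 4 tables, at −0.14, −0.15, −0.051 and −0.055.

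Some genes of complex V have pseudogenes or paralogs in the set. *Atp5l* had SEs of 0.30 to 0.36, above the median of all genes in each table, and its pseudogene *Atp5l-ps2* ranged from −1.68 in the TH+ distal SI to 1.07 in the ChAT+ proximal colon. The subunit c gene *Atp5g2* was at 0.43, 0.35, −0.29 and 0.26 with SEs of 0.29 to 0.40. The other subunit c genes had smaller SEs, of 0.12 to 0.22 for *Atp5g1* and 0.14 to 0.23 for *Atp5g3*. How reads that match several copies were assigned is not given in the sources used here. The part of such reads in these values was not tested.

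**Figure D2:**
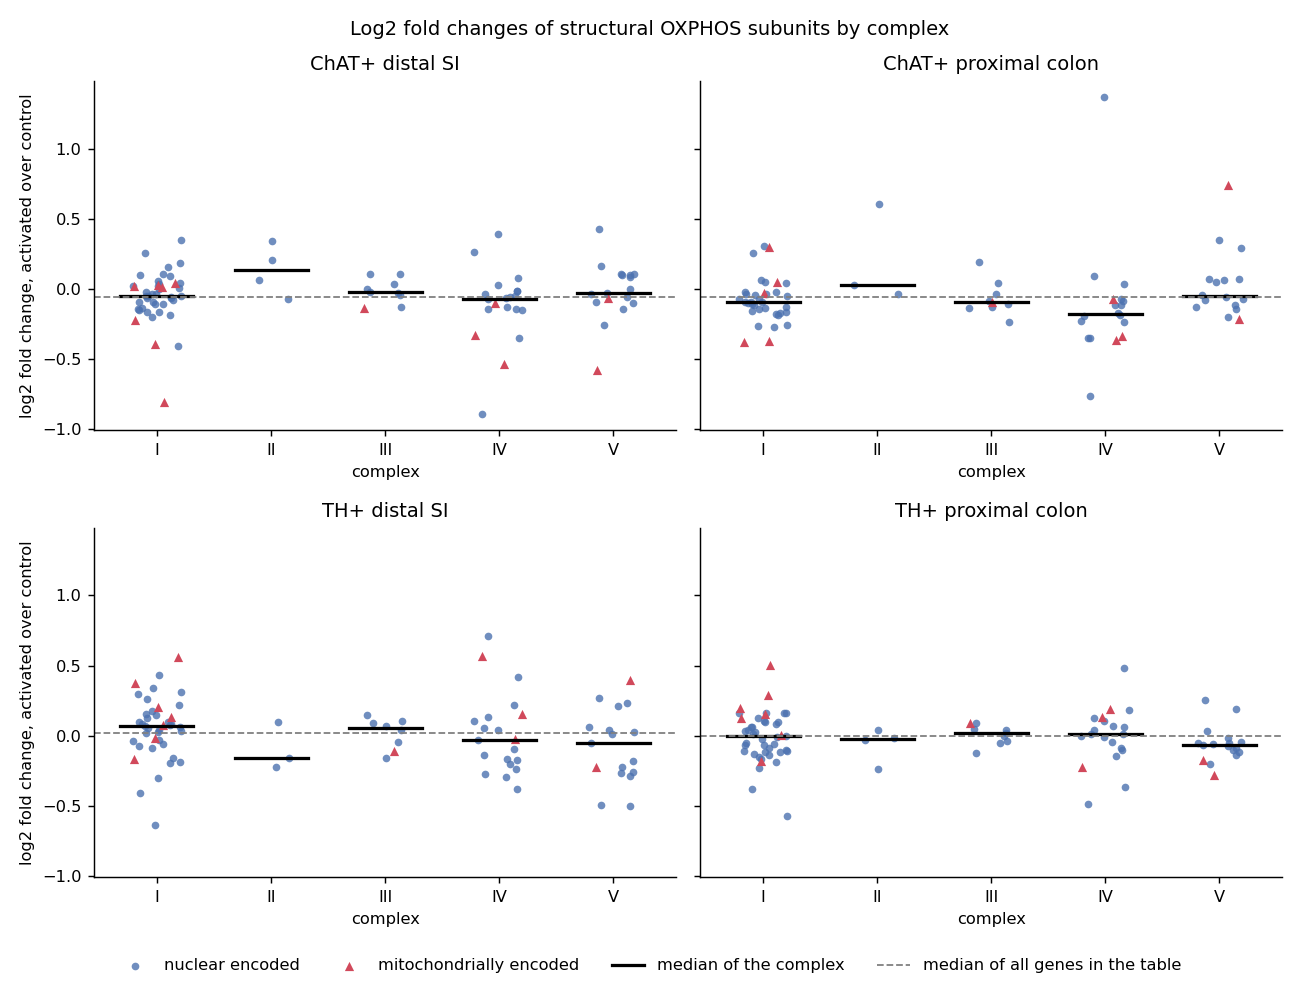
Log2 fold change, activated against control mice (y axis) for each structural OXPHOS subunit listed, by complex (x axis), in the 4 comparisons. Circles are nuclear and triangles mitochondrially encoded genes, black lines are medians of a complex and the dashed line is the median of all genes. The medians of complexes run from −0.18 to 0.13, and *Cox8b* at 1.37 is the farthest point.

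Set side by side, the complexes had medians between −0.18 and 0.13. For the ChAT+ distal SI the medians of complexes I to V were −0.049, 0.13, −0.019, −0.070 and −0.031, and the value for complex II rests on few genes. For the ChAT+ proximal colon they were −0.095, 0.028, −0.096, −0.18 and −0.053. For the TH+ distal SI they were 0.071, −0.16, 0.057, −0.027 and −0.051, and for the TH+ proximal colon −0.0039, −0.025, 0.018, 0.0099 and −0.064. The medians of all genes were −0.056, −0.060, 0.023 and −0.0037. Complex II lay farthest from them, in the distal SI of either line, but on 4 and 3 genes, and complex IV in the ChAT+ proximal colon had 15 of 18 genes below 0. The order of the complexes differed between tables, and complex II was highest in both ChAT+ comparisons and lowest in the TH+ distal SI. Over all structural subunits, 35 of 93, 21 of 81, 50 of 88 and 41 of 93 were above 0, and the medians were −0.040, −0.091, 0.039 and −0.019. The subunits share cells and RNA, so these counts are not independent observations.

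The mitochondrial genome encodes 13 proteins of the set, 7 in complex I, 1 in complex III, 3 in complex IV and 2 in complex V. Their medians were −0.14, −0.096, 0.13 and 0.12, against −0.039, −0.090, 0.034 and −0.026 for the nuclear subunits. The median was thus below 0 in both tissues of the ChAT+ line and above 0 in both of the TH+ line, but no single gene was called, and the medians were not tested. Among genes with an SE below the table median, the mitochondrial minus the nuclear median was −0.018, 0.014, −0.023 and 0.17, beside −0.12, −0.020, 0.092 and 0.17 without that limit, with assembly factors counted as nuclear in both. In 3 of the 4 tables the difference was thus within 0.023 of 0 once the less precise genes were left out. Fewer mitochondrial genes remained under that limit in each table. In the ChAT+ proximal colon only *mt-Co1*, *mt-Co3* and *mt-Nd5* did, so their median was the −0.074 of *mt-Co1*.

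Among the mitochondrial genes, the lowest value in the ChAT+ distal SI was that of *mt-Nd4l*, a membrane subunit of complex I, at −0.81 (95% interval −1.62 to −0.0042, adjusted p = 0.477). It was at 0.30, 0.21 and 0.50 in the other comparisons. *mt-Atp6*, the proton channel subunit of complex V, was at −0.58, −0.21, 0.40 and −0.17. The complex IV subunits *mt-Co2* and *mt-Co3* were at −0.53 and −0.33 in the ChAT+ distal SI and at −0.36 and −0.34 in the colon of that line. Values in the TH+ distal SI were 0.16 and 0.57, and in the TH+ proximal colon 0.19 and −0.22. The interval of *mt-Co3* in the TH+ distal SI, −0.0052 to 1.14, included 0 by a narrow margin (adjusted p = 0.431). *mt-Nd3* had a similar pattern, at −0.39, −0.38, 0.56 and −0.18.

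*mt-Co1* and *mt-Nd1* had the smallest SEs of the mitochondrial genes. *mt-Co1*, the catalytic subunit of complex IV, was at −0.099, −0.074, −0.026 and 0.13, with SEs of 0.12 to 0.19. *mt-Nd1* was at 0.020, −0.028, 0.13 and 0.20, and *mt-Nd5* within 0.045 of 0 in every table. *mt-Cytb*, the mitochondrial subunit of complex III, was at −0.14, −0.096, −0.11 and 0.089. *mt-Nd2* was at 0.029, 0.073 and 0.16 and *mt-Nd4* at −0.22, −0.16 and 0.12 in the 3 tables that list them. *mt-Nd6*, the only one of the 13 on the other strand, had wider errors (SEs of 0.39 to 0.43 where usable) and was at 0.013, −0.37, 0.37 and 0.29.

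**Figure D3:**
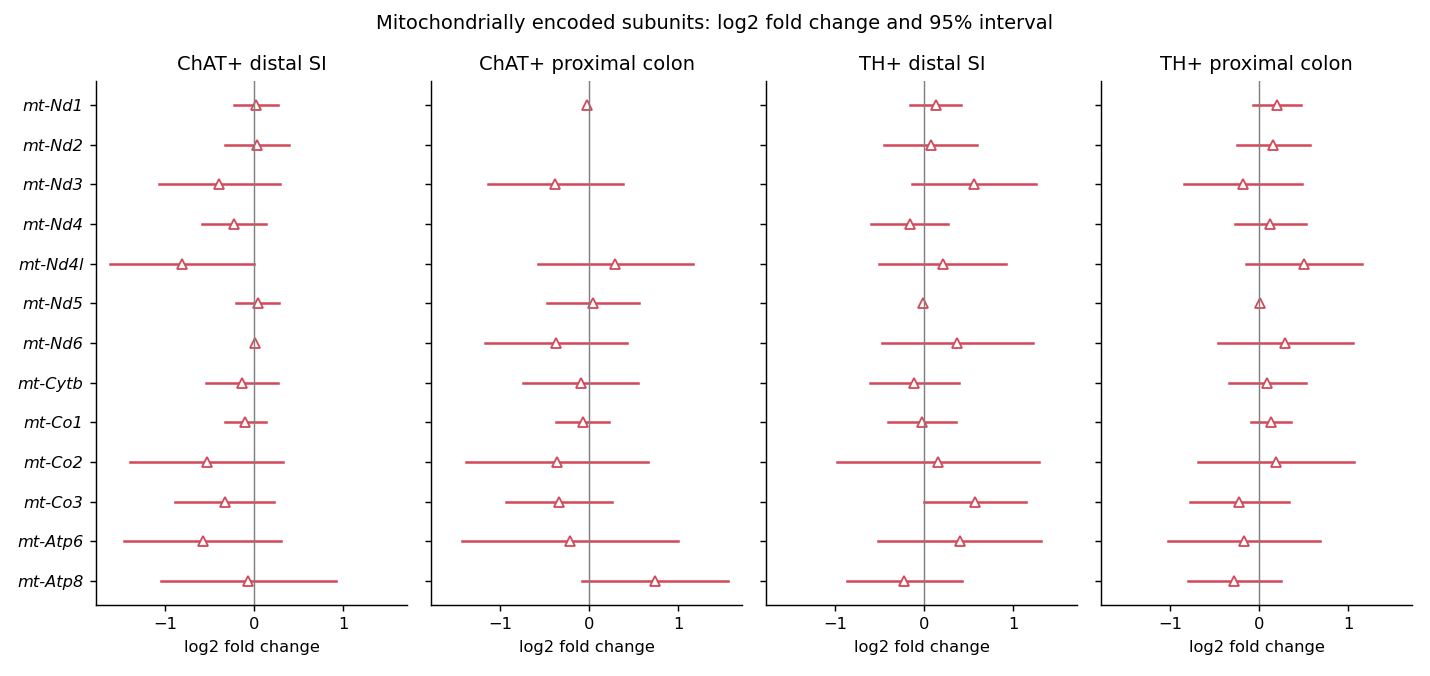
Log2 fold change, activated against control mice (x axis) for the 13 mitochondrially encoded subunits in the 4 comparisons, with recovered 95% intervals as lines. All intervals but that of *mt-Nd4l* in the ChAT+ distal SI include 0, a triangle without a line has no usable interval, and *mt-Nd2* and *mt-Nd4* are not listed for the ChAT+ proximal colon.

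Some mitochondrial genes overlap, and reads there cannot be given to a single gene. The largest overlap is that of *mt-Atp8* (chromosome M from 7766 to 7969) and *mt-Atp6* (7927 to 8607), which share 43 bases. They are shown because this overlap is the largest of the set and includes the annotated end of *mt-Atp8*. The last 60 bases of the first gene (chrM:7910-7969) and the first 60 of the second (chrM:7927-7986), plus strand of GRCm38, are below, with the shared bases in capitals.
mt-Atp8: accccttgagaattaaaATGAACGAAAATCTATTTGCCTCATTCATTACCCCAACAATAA
mt-Atp6: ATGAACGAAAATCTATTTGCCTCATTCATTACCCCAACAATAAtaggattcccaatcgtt
*mt-Atp8* was at −0.065, 0.74, −0.22 and −0.28 with SEs of 0.27 to 0.50, and differed in sign from *mt-Atp6* in the ChAT+ proximal colon and the TH+ distal SI. Their intervals overlapped in all 4 tables. Smaller overlaps join *mt-Nd4l* and *mt-Nd4* (7 bases), *mt-Atp6* and *mt-Co3* (1 base) and, on opposite strands, *mt-Nd5* and *mt-Nd6* (14 bases). How overlapping reads were counted, and whether by strand, is not given in the sources used here.

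The other RNAs of the mitochondrial genome gave no call either. The ribosomal RNAs *mt-Rnr1* and *mt-Rnr2* were at 0.14 and 0.30 in the ChAT+ distal SI, 0.040 and 0.10 in the colon of that line, 0.27 and 0.10 in the TH+ distal SI and −0.038 and −0.075 in the TH+ proximal colon. Of the transfer RNAs, 11 of 21, 15 of 20, 9 of 18 and 3 of 21 were above 0. The transfer RNAs were a list added after the values were seen.

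Mitochondrially encoded subunits were measured less precisely than nuclear ones. The median SE was 0.25, 0.40, 0.31 and 0.28 for the former and 0.11, 0.13, 0.12 and 0.11 for the latter, while that of all genes was 0.28, 0.29, 0.28 and 0.24. Over the tables, the middle SE of a mitochondrial gene ran from 0.13 (*mt-Co1*) to 0.48 (*mt-Co2*), and 7 of 13 were above 0.25. For nuclear subunits it ran from 0.075 (*Ndufa6*) to 0.68 (*Cox6a2*), and 8 of 80 were above 0.25, namely *Atp5l*, *Atp5g2*, *Sdhd*, *Cox6b2*, *Cox8b*, *Cox4i2*, *Ndufa4l2* and *Cox6a2*. The same genes were imprecise in each table, with Spearman correlations of the SEs between pairs of tables of 0.867 to 0.982 over 77 to 89 OXPHOS genes. This is a description across genes, which share their abundance between tables. The rule that set aside SEs with an uncertain p was chosen after the values were seen.

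**Figure D4:**
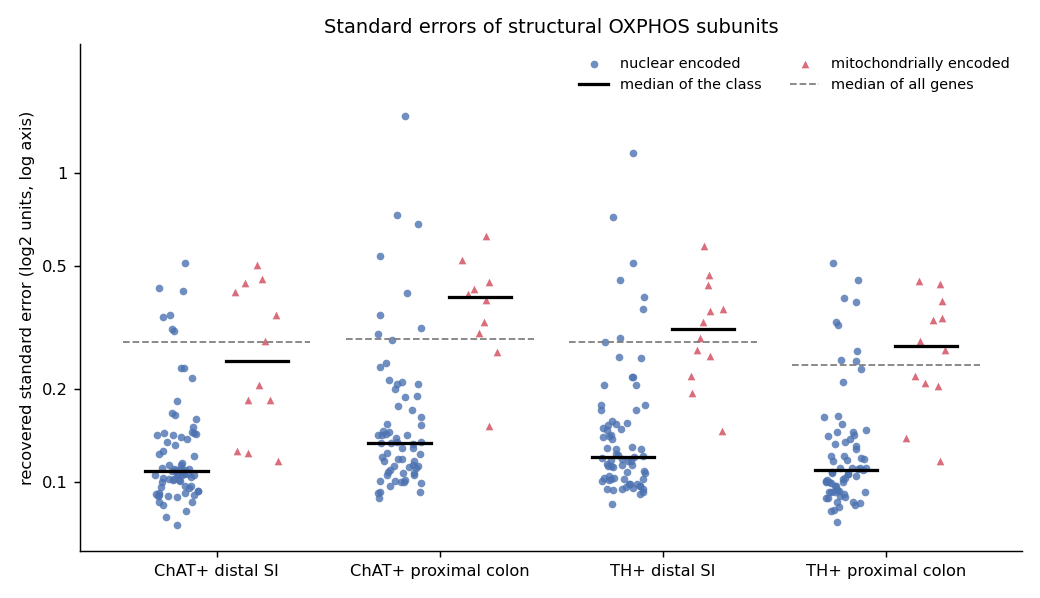
Recovered SE of the log2 fold change (y axis, log scale) of structural OXPHOS subunits in the 4 comparisons. Circles are nuclear and triangles mitochondrially encoded genes, black lines are class medians and dashed lines medians of all genes, and in every comparison the mitochondrial median (0.25 to 0.40) lies above the nuclear one (0.11 to 0.13).

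For most OXPHOS genes the recovered intervals were narrow. The 95% interval lay within 1.5-fold of no change, in either direction, for 73 of 98 OXPHOS genes with a usable SE in the ChAT+ distal SI (74.5%), against 33.0% of all genes. It did so for 62 of 87 in the ChAT+ proximal colon (71.3% against 31.5%), 66 of 97 in the TH+ distal SI (68.0% against 31.9%) and 75 of 97 in the TH+ proximal colon (77.3% against 39.7%). Among all genes with an SE below the table median, the shares were 66.2%, 59.1%, 59.3% and 77.7%. The OXPHOS shares were thus closer to those of precise genes than to those of all genes, and no higher than them in the TH+ proximal colon. Nuclear subunits reached 86.5%, 83.3%, 82.2% and 85.9%. Among mitochondrially encoded subunits it was 6 of 12, 2 of 10, 2 of 12 and 5 of 12, so for the others a 1.5-fold change lay within the error. Genes without a usable SE, 9, 6, 4 and 10 in number, had log2 fold changes within 0.023, 0.066, 0.055 and 0.032 of 0.

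Few estimates passed 1.5-fold at all. For the ChAT+ distal SI they were *Atp5l-ps2* (−0.90), *Cox8b* (−0.90) and *mt-Nd4l* (−0.81). In the ChAT+ proximal colon they were *Cox8b* (1.37), *Atp5l-ps2* (1.07), *mt-Atp8* (0.74), *Sdhd* (0.60) and *Cox6a2* (−0.77). For the TH+ distal SI they were *Atp5l-ps2* (−1.68), *Cox8b* (0.71) and *Ndufb3* (−0.64), and in the TH+ proximal colon there were 0. *Ndufb3* was the only one of these with an SE below the median of its table.

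The effect of activation was compared between the lines within each tissue, as the difference of log2 fold changes (ChAT+ minus TH+) over its SE. This takes the fold changes of both lines to be on the same scale, which was not tested. In the distal SI, 1841 of 20445 genes passed 1.5-fold in the ChAT+ line and 4130 of 18960 in the TH+ line. No OXPHOS gene passed an adjusted p of 0.05. The count was 0 of 101 for the distal SI, where 0.164% of all genes passed, and 0 of 92 for the proximal colon, where 0.104% did. At an unadjusted p under 0.05 the distal SI held 16 of 101 (15.8%) against 9.85% of all genes, and the proximal colon 5 of 92 (5.43%) against 8.01%. The shares of all genes were not limited to precise genes here. The OXPHOS counts include 12 and 15 genes whose SE was uncertain in at least 1 table. Without such genes they were 16 of 89 (18% against 11.3%) and 5 of 77 (6.49% against 9.33%), and 0 passed the adjusted threshold.

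Of the 16 in the distal SI, 11 had the lower value in the ChAT+ line. The lowest p was that of *Ndufa13*, an accessory subunit of complex I, at −0.17 in the ChAT+ and 0.27 in the TH+ comparison, a difference of −0.43 (SE 0.15, adjusted p = 0.218). *Ndufa2* (−0.44, adjusted p = 0.314), *Ndufa5* (−0.38, adjusted p = 0.365) and *Ndufv1* (−0.36, adjusted p = 0.377) had the same direction, as did *Cox7a2l*, a factor that joins complexes III and IV, at −0.59 (adjusted p = 0.338), and *Atp5d*, *Atp5j2* and *Atp5k* of complex V. Among mitochondrial genes *mt-Co3* had the lowest p (difference −0.90, interval −1.70 to −0.098, adjusted p = 0.430). The opposite direction was seen for *Ndufs5* (0.76), *Ndufa4* (0.66), *Atp5f1* (0.39), *Ndufs1* (0.34) and *Atp5b* (0.29). The rise of *Ndufaf4* in the ChAT+ distal SI was not shown to differ from the TH+ value, with a difference of 0.31 and an interval from −0.014 to 0.63 (adjusted p = 0.528). In the proximal colon *Ndufaf4* had the lowest p, with a difference of 0.40 (interval 0.13 to 0.68, adjusted p = 0.294), followed by *Cox8b* at 1.85 (0.48 to 3.22, adjusted p = 0.363).

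**Figure D5:**
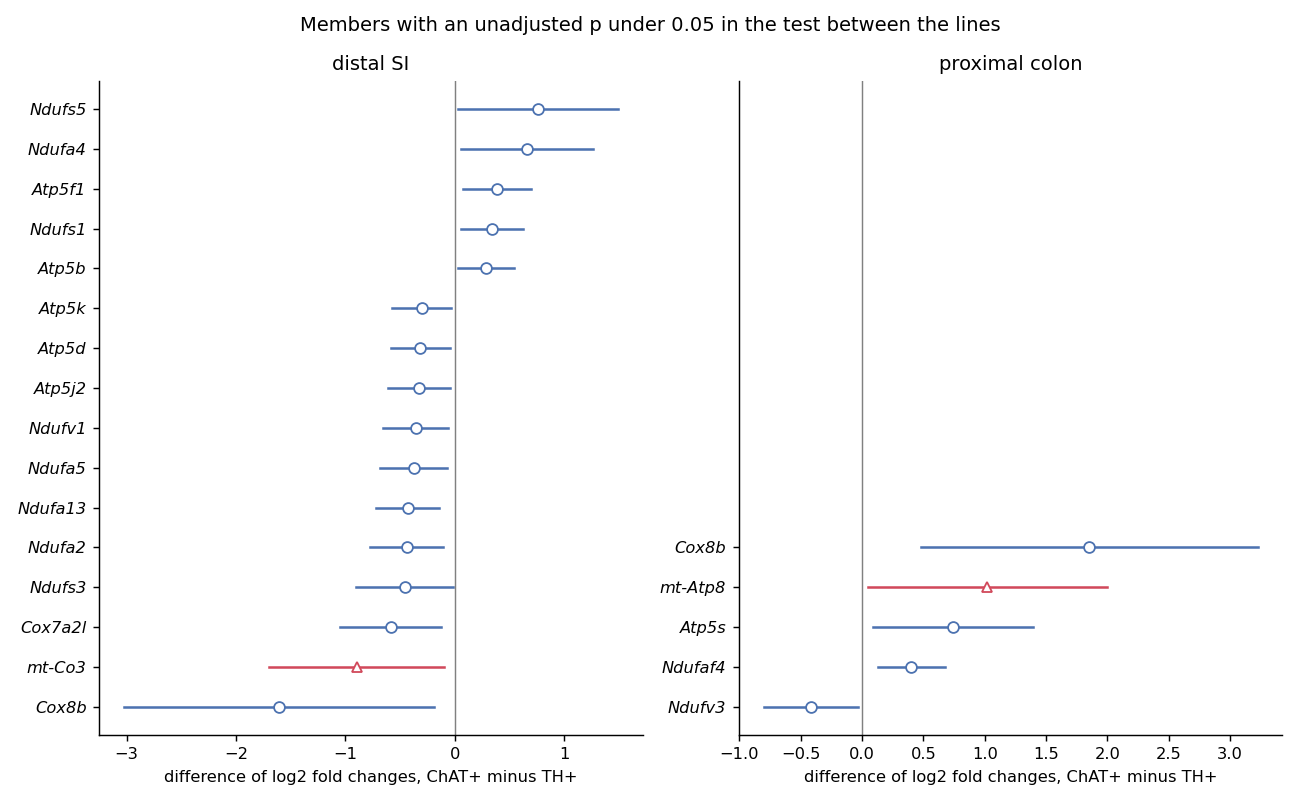
Difference of log2 fold changes between the lines (x axis, ChAT+ minus TH+) with 95% intervals for the OXPHOS genes with an unadjusted p under 0.05, 16 for the distal SI and 5 for the colon. They were chosen by that p, so their intervals exclude 0 by selection, and open symbols (circles nuclear, triangles mitochondrial) did not pass the adjusted threshold.

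OXPHOS genes seldom kept a sign across comparisons. Of the 88 listed in all 4 tables, *Ndufaf7* and *Sdhaf1* were above 0 in all (2.27%) and *Atp5o*, *Ndufa3* and *Ndufa4l2* below 0 in all (3.41%), against 6.55% and 9.7% of 16265 genes. Sample numbers of a line often recur between its tissues, so these may come from the same mice.

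Genes that feed, build or regulate the chain gave few calls. Of 27 assembly factors outside the prefixes, 16 enzymes of the tricarboxylic acid cycle and 12 genes of ATP exchange and uncoupling, 0 passed in any comparison. Among 16 electron carriers and feeders, *Coq7*, an enzyme of ubiquinone synthesis, fell by 0.32 (log2) in the TH+ proximal colon (adjusted p = 0.0472), and 0 others passed. Among 19 genes of mitochondrial transcription and biogenesis, *Peo1*, the helicase that unwinds mitochondrial DNA, fell by 1.12 in the ChAT+ proximal colon (adjusted p = 5.98e-06), and 0 others passed. It was at −0.63 in the ChAT+ distal SI (adjusted p = 0.419), 0.17 in the TH+ distal SI and 0.19 in the TH+ proximal colon. Among 18 glycolytic genes, *Hk2*, a hexokinase that phosphorylates glucose at the outer mitochondrial membrane, rose in 3 comparisons, by 0.60 in the ChAT+ distal SI (adjusted p = 0.00895), 0.45 in the ChAT+ proximal colon (adjusted p = 0.016) and 0.50 in the TH+ proximal colon (adjusted p = 0.00691). In the TH+ distal SI it was at 0.27 (adjusted p = 0.427). Of 78 mitochondrial ribosomal proteins, *Mrps10* rose by 1.16 in the ChAT+ distal SI (adjusted p = 0.0408), and in the ChAT+ proximal colon *Mrps31* rose by 0.55 (adjusted p = 0.0171) and *Mrpl19* fell by 0.55 (adjusted p = 0.0168).

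Markers of cell types were read beside these values, without levels to check the tissue itself. In the ChAT+ distal SI 6 of 8 smooth muscle markers were above 0, and *Cnn1* (0.60, adjusted p = 0.00756), *Des* (0.67, adjusted p = 0.0135) and *Tagln* (0.57, adjusted p = 0.0389) rose, whereas 7 of 8 were below 0 in the ChAT+ proximal colon, where *Smtn* fell by 0.45 (adjusted p = 0.0321). In the TH+ distal SI, the comparison with the most OXPHOS genes at an unadjusted p under 0.05, 8 of 8 smooth muscle markers (0.0091 to 0.40), 5 of 5 macrophage markers (0.074 to 0.58, with *C1qa* called higher, adjusted p = 0.006) and 5 of 5 B and plasma cell markers (0.070 to 1.08) were above 0. Of the B and plasma cell markers, 0 of 5 were above 0 in the ChAT+ distal SI (median −0.55), 0 of 3 in the ChAT+ proximal colon (median −0.51) and 2 of 5 in the TH+ proximal colon, with 0 called. Enterocyte markers were split, with 5 of 10, 5 of 7, 4 of 8 and 3 of 10 above 0 and 0 called, and enteric neuron markers with 5, 2, 3 and 5 of 8. Striated muscle markers gave 0 calls, with medians of −0.18, −0.58, 0.22 and −0.23. The part of these markers in the OXPHOS values was not tested.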

How the data were processed

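Gene expression was measured in 54 QuantSeq libraries in 8 groups. Reads were trimmed with BBDuk, aligned with HISAT2 version 2.1.0, collapsed by UMI, counted with HTSeq on GRCm38 genes and compared in ShinySeq, per the study's methods, which state no filter on low counts, shrinkage of fold changes or covariate. The deposited tables hold the log2 fold change and the −log10 of the adjusted p-value of each gene, with no value per library. These are the only values given, so the calls are the deposited ones and no count model was refitted. Depth is unknown. Rows repeated at the end of each table were dropped. No column of values per sample was left out.

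Unadjusted p-values were recovered by undoing the Benjamini-Hochberg adjustment, and an SE as the absolute log2 fold change over the normal quantile of that p. If fold changes were shrunk after the test, these SEs are too small. In the ChAT+ distal SI 1841 of 20445 genes passed 1.5-fold. In the other comparisons 3813 of 17512, 4130 of 18960 and 3648 of 20445 did. Whether the fold changes of the 4 comparisons are on the same scale was not tested. This limits comparing SEs and 1.5-fold counts between them, and it limits the differences between the lines. SEs were used up to an unadjusted p of 0.9 and where the bounds of p put them within a ratio of 1.25. This limit was not applied to the differences between the lines or to the median split by SE. Differences between the lines used the summed squared SEs with Benjamini-Hochberg adjustment over all genes. The steps were tested on simulated data drawn by the same normal rule that the recovery inverts, without shrinkage or gene filters. That test cannot show how well the SEs hold for the deposited values. Positions came from GENCODE M21 and promoters from RefSeq GRCm38.p6. pandas 2.3.3, numpy 2.4.6, scipy 1.17.1 and matplotlib 3.10.9 were used.

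Named were members that passed a threshold, the 13 mitochondrial genes and the 3 subunits with the smallest p per direction and table. Tissue-restricted isoforms and the extremes of each complex among precise genes were named as well. Assembly factors, genes with an unadjusted p under 0.05 and genes with pseudogenes or paralogs were added after their values were seen. Genes of other lists were named at an adjusted p under 0.05. The members and lists were chosen with earlier results of these data known. The lists of mitochondrial ribosomal proteins, transfer RNAs and ribosomal RNAs were added after the values were seen. The alternatives were other thresholds, subunit sets, precision filters and centring. Whether labelled samples are separate mice is not stated in the labels. The paper gives more mice per group than most groups have libraries. The p-values are the study's own, and whether they rest on these libraries alone is not known.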

Additional observations from a re-analysis of the deposited data

How the results depend on the processing

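The call of *Ndufaf4* in the ChAT+ distal SI was kept at adjusted p thresholds of 0.01 and 0.1. The count of OXPHOS genes called higher there went from 1 to 0 when a fold change of at least 1.5 was also required, and to 0 when structural subunits alone were counted, since *Ndufaf4* is an assembly factor with a 1.42-fold change. These were the 2 of 74 alternative values that changed a count of calls. The other counts of called members, those between the lines included, stayed at 0 under each alternative. Mitochondrial minus nuclear medians, which were not tested, were also taken over genes with an SE below the table median alone. Their sign then changed from −0.020 to 0.014 in the ChAT+ proximal colon and from 0.092 to −0.023 in the TH+ distal SI. They went from −0.12 to −0.018 in the ChAT+ distal SI and from 0.17 to 0.17 in the TH+ proximal colon. Fewer mitochondrial genes remained under this limit, in the ChAT+ proximal colon only *mt-Co1*, *mt-Co3* and *mt-Nd5*. An alternative chosen after seeing the data, intervals for all members from the highest possible p, gave 80, 63, 67 and 75 genes within 1.5-fold in place of 73, 62, 66 and 75, and leaving uncertain SEs out of the differences between lines, also chosen after seeing the data, kept their counts at 0. No paired analysis was possible because the deposited values are pooled over libraries, and for the same reason no replicate could be left out. The lack of depth and of values per library limits every statement to the recovered error.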
